A study of Mus musculus with 4 samples.

Results

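Microglia, the resident macrophages of the brain, carry a set of surface and signalling genes that mark them in undisturbed tissue. The 7 genes described here are P2ry12, Tmem119, Cx3cr1, Csf1r, Fcrls, Tgfbr1 and Aif1, chosen by name as markers of homeostatic microglia. All 7 are listed among the 19465 genes of the files, each on 1 row, and their counts were followed over 4 mouse brain sections and region by region.

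The homeostatic state is known to depend on signals from neighbouring cells. CSF1R keeps microglia alive on its ligands IL-34 and CSF-1, and TGF-beta, read through TGFBR1, holds the homeostatic programme in place. In many mouse models of neurodegeneration microglia lower P2ry12, Tmem119 and Cx3cr1 as they turn on a disease-associated programme with Trem2, Tyrobp and Cst7.

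The sections came from 2 rNLS8 and 2 Control samples, at an age of 11 weeks, with doxycycline withdrawal given as the treatment of both groups and 3 weeks passed since. In rNLS8 mice a neurofilament heavy chain promoter drives a doxycycline-repressed activator, so that withdrawal switches on human TDP-43 with a defective nuclear import signal in neurons. Which transgenes the Control animals carry is not given in the sources used here. Tissue was fixed in formalin, embedded in paraffin and cut at 5 µm, and RNA was counted per spot of a Visium array as unique molecular identifiers (UMI). A spot can cover several cells, so fewer microglia and less RNA per microglia cannot be told apart in any value below.

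The rNLS8 sections held 28056089 and 17627577 UMI, and the Control sections 19064969 and 23869254 UMI. Replicate 1 of each group is labelled female and replicate 2 male, but Y-linked genes held 136.7 and 139.1 UMI in each 1000000 of the library in rNLS8 replicates 1 and 2, against 0 and 107.3 in Control replicates 1 and 2. The library labelled rNLS8 replicate 1 thus goes against its sex label, and the calls in the cortex are also given without it. By these counts Control replicate 1 is the only section without Y-linked UMI, so the groups are not balanced. Leaving out rNLS8 replicate 1 does not change that. Tardbp, the gene of TDP-43, held 197 and 138 UMI in the rNLS8 sections and 0 UMI in both Control sections. The row is that of the mouse gene, which brain cells normally express, and no source used here gives whether its probes read the mouse or the human transcript. The labels do not say that each section came from its own animal, so the tests weigh differences against section-to-section spread alone, which may be technical.

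Levels are in CPM, the UMI of a gene in each 1000000 after trimmed-mean scaling, summed over the spots of a region. Calls are genes whose p from edgeR's quasi-likelihood test stayed under 0.05 after Benjamini-Hochberg adjustment over all genes tested. Fold changes are log2 of rNLS8 over Control, with their standard error (SE). Where 1 section is left out, its group has 1 section, which is assumed to vary as much as those of the other group. Levels are compared between sections and not between genes, since no length or capture scale is known.

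The promoters of Fcrls and P2ry12 are shown because Fcrls had the largest and P2ry12 one of the smallest differences of the 7 genes. In GRCm38.p6, Fcrls, an Fc receptor-like gene of microglia, spans chr3:87250736-87263765, and P2ry12, a nucleotide receptor gene, spans chr3:59216271-59262985. Each sequence, from RefSeq, runs from 250 bases before to 50 after an annotated start, is read 5′ to 3′ on the minus strand and has AGGAAG on either strand in capitals, a core of sites bound by the myeloid factor PU.1.
Fcrls, chr3:87263475-87263774: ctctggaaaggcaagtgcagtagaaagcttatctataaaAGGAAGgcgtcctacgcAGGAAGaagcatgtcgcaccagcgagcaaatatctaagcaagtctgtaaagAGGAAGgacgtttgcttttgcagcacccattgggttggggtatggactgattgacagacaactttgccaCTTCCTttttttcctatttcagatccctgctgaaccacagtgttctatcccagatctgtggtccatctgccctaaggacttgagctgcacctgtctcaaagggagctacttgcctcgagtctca
P2ry12, chr3:59262936-59263235: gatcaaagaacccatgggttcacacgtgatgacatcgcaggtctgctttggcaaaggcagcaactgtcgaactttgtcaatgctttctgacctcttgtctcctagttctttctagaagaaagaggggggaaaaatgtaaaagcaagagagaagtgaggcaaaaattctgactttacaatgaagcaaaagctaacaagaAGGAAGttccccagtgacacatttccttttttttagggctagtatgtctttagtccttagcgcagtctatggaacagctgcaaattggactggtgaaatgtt
The start used for P2ry12 is the outer end of its span, so 250 bases of its window lie upstream of the gene. The start used for Fcrls lies 241 bases within its span, so 291 bases of its window are inside the annotated gene and 9 upstream. The Fcrls window held 4 matches and the P2ry12 window 1, and as the windows are placed differently these counts are not compared. Of 32851 promoters of this length, 35.4% held a match, so a match is common. Promoters were found for 5 of the 7 genes. Cx3cr1 and Aif1 held 0 matches, and the windows of Tgfbr1 held 1 and 2. GAGGAA, which can overlap AGGAAG and occurs in 28.3% of promoters on either strand, was found once in Fcrls, in Aif1 and in 1 window of Tgfbr1.

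In the cortex, the region named in the series title, Fcrls was higher in rNLS8 and was the 1 gene of the 7 that passed the test. The other 6 had higher means in rNLS8 and did not pass, between 1.39-fold for P2ry12 and 1.77-fold for Aif1. The 1 called gene stands against 0.793% of 12100 genes called as higher. For 6 of the 7, both rNLS8 sections lay above both Control sections, against 28.8% of all genes tested. The median log2 fold change of the 7 was 0.64, beside 0.02 over all genes tested.

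Fcrls stood at 8.92 and 10.9 CPM in the rNLS8 cortex, from 76 UMI each, against 2.59 and 1.88 CPM in the Control cortex, from 15 and 13 UMI. The groups did not overlap and the sections of each group were close. The means were 9.93 ± 1.42 CPM in rNLS8 and 2.23 ± 0.4999 CPM in Control (SD, n = 2 each), a log2 fold change of 2.15 (SE 0.350, edgeR adjusted p = 0.0376). From the summed UMI alone, the ratio had a 95% interval of 3.28 to 7.68, which covers counting error only.

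The size of the Fcrls difference was steady while its call was not. Its log2 fold change was 2.38 without Control replicate 1, the section without Y-linked UMI, and 1.90 without Control replicate 2. Without rNLS8 replicate 1 the fold was 2.29 (edgeR adjusted p = 0.0122), and without rNLS8 replicate 2 it was 2.00 (adjusted p = 0.0914). The call was also lost with cortex drawn from another clustering seed (2.06, adjusted p = 0.0519), from clusters at resolution 0.5 (2.15, adjusted p = 0.0502) and under upper-quartile scaling (2.20, adjusted p = 0.05002). DESeq2 gave 2.13 (adjusted p = 0.00602).

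Among the receptors of survival and homeostatic signals, Csf1r stood at 73.1 and 99.4 CPM in rNLS8, against 48.6 and 62.2 CPM in Control (log2 fold change 0.64, SE 0.208, adjusted p = 0.146). Tgfbr1, the type I receptor of TGF-beta, stood at 25.2 and 23.0 CPM in rNLS8, against 13.3 and 16.05 CPM in Control (0.72, SE 0.212, adjusted p = 0.119). Neither overlapped between groups, and neither passed. Cx3cr1, the receptor of the neuronal ligand fractalkine, stood at 28.5 and 32.6 CPM in rNLS8, against 21.2 and 20.5 CPM in Control (0.55, SE 0.184, adjusted p = 0.154). Its groups did not overlap either.

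Aif1, which encodes the actin-binding protein IBA1, stood at 33.5 and 50.2 CPM in rNLS8, against 18.3 and 29.1 CPM in Control (0.81, SE 0.282, adjusted p = 0.165). Its groups did not overlap. P2ry12 stood at 19.7 and 27.5 CPM in rNLS8, against 14.3 and 19.7 CPM in Control (0.47, SE 0.258, adjusted p = 0.344). The lower rNLS8 section and the higher Control section were nearly level. Tmem119, a membrane protein gene used to tell microglia from other macrophages, stood at 17.1 and 23.9 CPM in rNLS8, against 9.14 and 20.4 CPM in Control (0.46, SE 0.372, adjusted p = 0.514). Its groups overlapped, with Control replicate 1 far below the other sections.

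**Figure D1:**
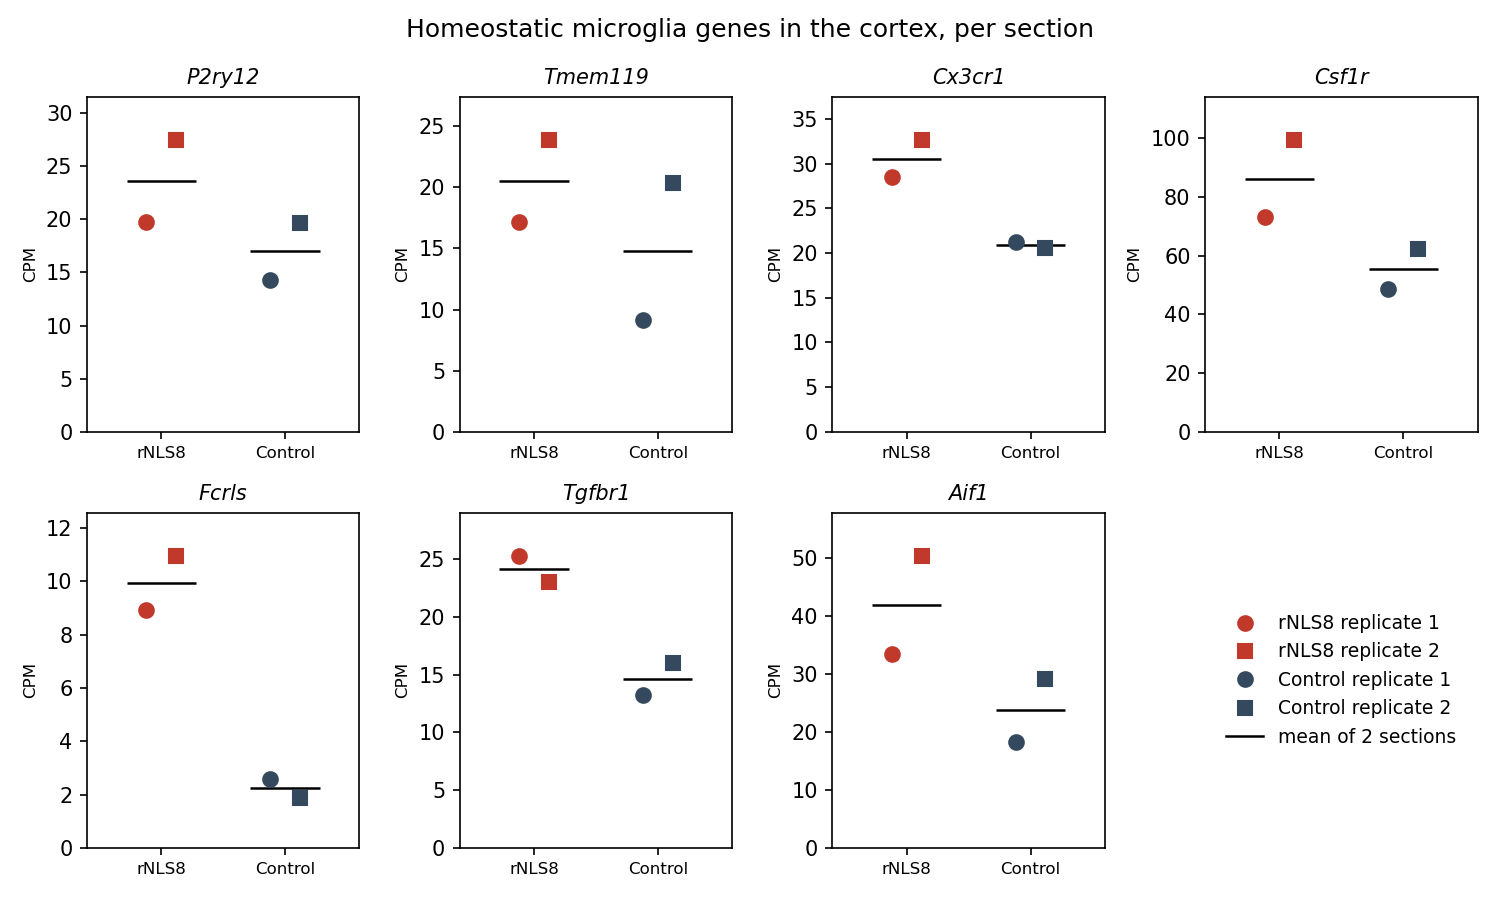
Cortical level of each gene in CPM (y axis from 0), 1 point per section, rNLS8 left and Control right, with a line at the mean of 2 sections. Fcrls lies at 8.92 and 10.9 CPM in rNLS8, against 2.59 and 1.88 CPM in Control, while Tmem119 overlaps between the groups.

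The number called moved with the sections kept. Without rNLS8 replicate 2 it was 0 of the 7. Without Control replicate 2, where the spread comes from the rNLS8 pair alone, 6 of the 7 were called as higher (all but Cx3cr1), among 4362 of 12369 genes called in either direction. Without Control replicate 1 the fold of Tmem119 was 0.00 and that of P2ry12 0.25, and neither was called.

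Shares of spots were compared after each cortical spot was thinned to 3000 UMI, because the median spot held 10688 and 8087 UMI in rNLS8, against 6515 and 8786 UMI in Control. Fcrls was then found in 2.41% and 3.53% of rNLS8 spots, against 0.719% and 0.580% of Control spots. The groups did not overlap. P2ry12 was found in 7.51% and 7.57% of rNLS8 spots, against 3.95% and 4.64% of Control spots, and Cx3cr1 in 8.04% and 11.3% of rNLS8 spots, against 5.27% and 5.94% of Control spots. Tmem119 was the 1 gene of the 7 whose groups overlapped at this depth, at 4.16% and 6.56% in rNLS8, against 1.92% and 7.54% in Control. How many of all genes separate on this readout was not counted, so the separation of the others has no background share beside it. A UMI of at least 1 of the 7 genes was found in 44.2% and 52.2% of rNLS8 spots, against 26.9% and 37.7% of Control spots. For each gene but Tmem119 the exact two-sided permutation test over sections gave p = 0.333, the smallest that 2 against 2 allows. Left out as too shallow were 32 and 36 rNLS8 spots and 183 and 126 Control spots. At a depth of 2000 UMI, P2ry12 (4.01% and 4.98% in rNLS8, against 2.32% and 4.08% in Control) and Tgfbr1 (3.62% and 4.74% in rNLS8, against 2.90% and 3.67% in Control) overlapped too, so their separation rests on the depth chosen. Without thinning, the share for Fcrls was 8.61% and 8.56% in rNLS8, against 1.47% and 1.59% in Control.

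**Figure D2:**
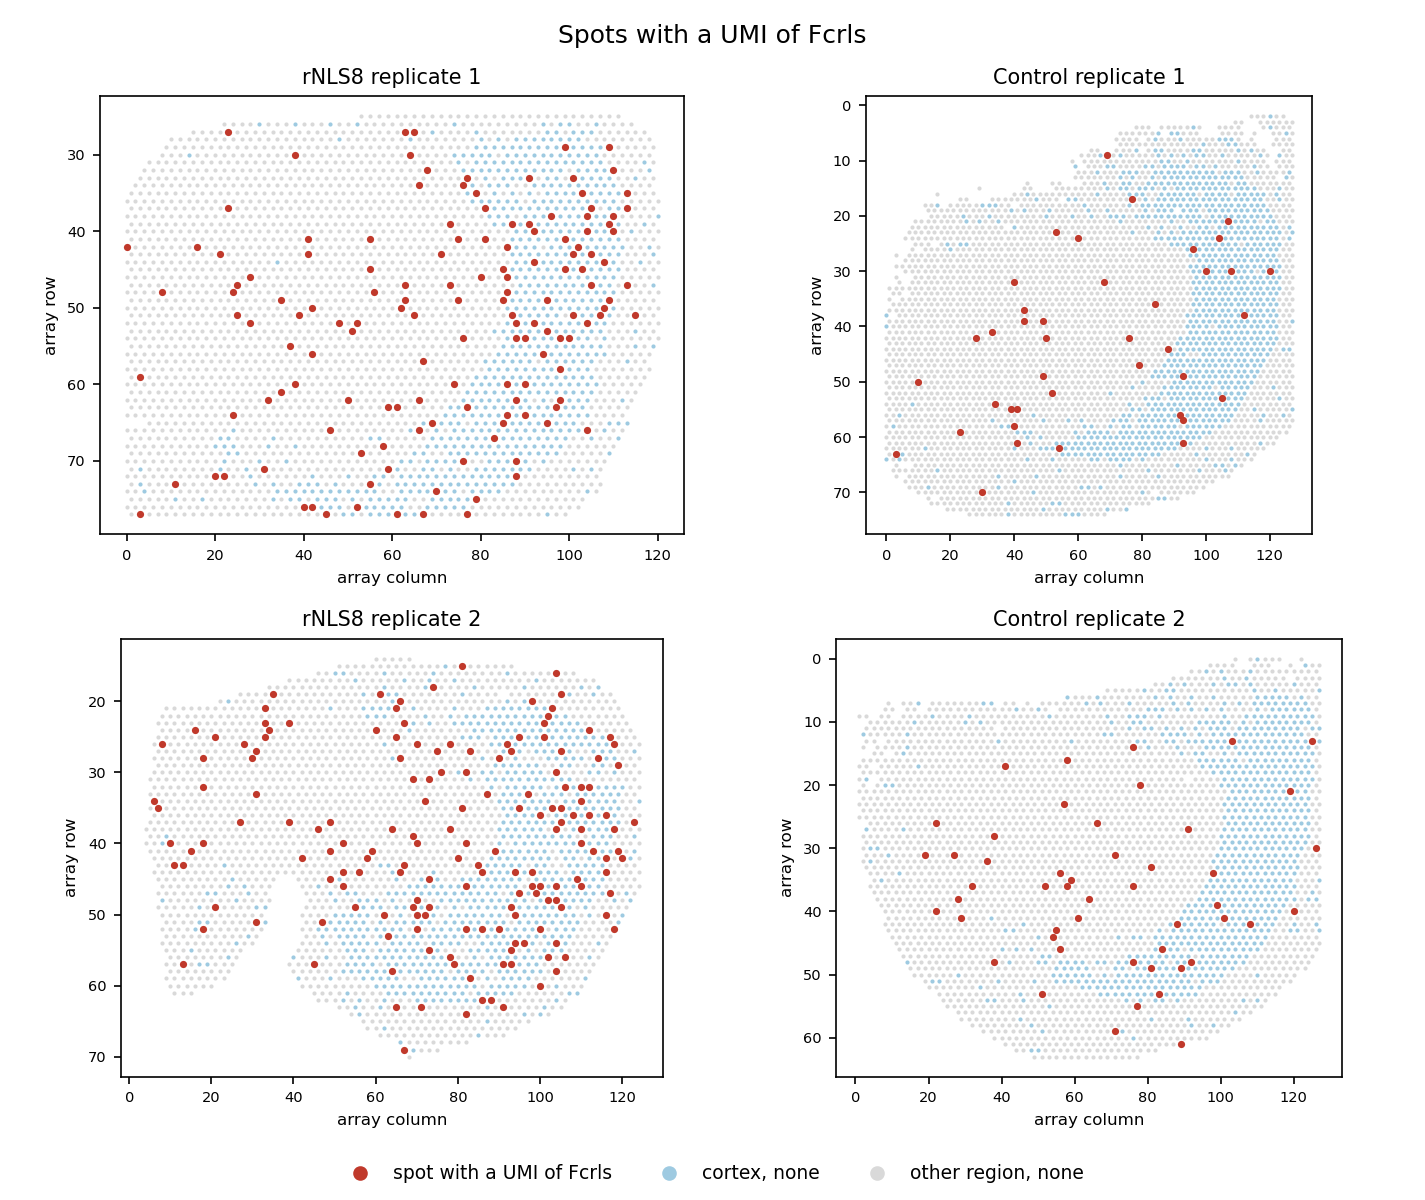
Spots of each section at their array column (x) and row (y), rNLS8 left of Control, with spots that hold a UMI of Fcrls in red, other cortical spots in blue and the remaining spots in grey. Within the cortex 67 of 778 and 71 of 829 spots held Fcrls in rNLS8, against 15 of 1018 and 13 of 816 in Control.

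Over whole sections none of the 7 passed in edgeR, which called 0% of genes there (0 of 13444, with 2093 at an unadjusted p under 0.05), while DESeq2 called 526 genes. Fcrls stood at 5.32 and 9.60 CPM in rNLS8, against 2.28 and 2.07 CPM in Control (log2 fold change 1.77, SE 0.378, edgeR adjusted p = 0.173). Its groups did not overlap. It was called by DESeq2 (1.75, adjusted p = 0.00867), with no filter on low counts (1.77, adjusted p = 0.0374) and without rNLS8 replicate 1 (2.14, adjusted p = 0.0176). It was not called under the other settings, and without rNLS8 replicate 2 its fold was 1.29 (adjusted p = 0.766). For 4 of the 7 genes both rNLS8 sections lay above both Control sections, against 26.9% of all genes tested. P2ry12 had the smallest fold, at 19.0 and 27.1 CPM in rNLS8, against 15.9 and 24.3 CPM in Control (0.19, SE 0.277, adjusted p = 0.766). The folds of the others lay between 0.42 for Cx3cr1 and 0.64 for Tgfbr1, with Csf1r at 0.52, Aif1 at 0.54 and Tmem119 at 0.60.

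In the striatum, where 0.321% of genes were called, none of the 7 passed. Fcrls stood at 4.13 and 6.33 CPM in rNLS8, against 3.18 and 2.14 CPM in Control (0.94, SE 0.439, adjusted p = 0.365). Tgfbr1 stood at 22.0 and 24.3 CPM in rNLS8, against 12.9 and 17.1 CPM in Control (0.61, SE 0.233, adjusted p = 0.292). Neither gene overlapped between groups, as for 5 of the 7 in all, against 25.3% of all genes tested with rNLS8 above. P2ry12, at 19.6 and 26.99 CPM in rNLS8, against 17.4 and 27.8 CPM in Control, overlapped (0.00, SE 0.291). Aif1 also overlapped, at 28.2 and 41.3 CPM in rNLS8, against 20.7 and 34.6 CPM in Control (0.29, SE 0.293). Csf1r had a fold of 0.42 (SE 0.190), Cx3cr1 one of 0.37 (SE 0.196) and Tmem119 one of 0.75 (SE 0.389). Without Control replicate 2, with the spread again from the rNLS8 pair and 1243 genes called in place of 39, Tmem119 (1.54, adjusted p = 0.0211) and Csf1r (0.65, adjusted p = 0.0425) were among them.

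In the white matter, where 0.16% of genes were called, none of the 6 tested genes passed. Fcrls did not pass the filter on low counts, with 11 UMI in each rNLS8 section, against 1 and 0 UMI in the Control sections. Aif1 stood at 39.6 and 57.9 CPM in rNLS8, against 22.6 and 34.6 CPM in Control (0.76, SE 0.320, adjusted p = 0.405). Its groups did not overlap, as for 3 of the 6, against 23.1% of all genes tested with rNLS8 above. Without Control replicate 2, where 1092 genes were called in place of 15, it was called (1.08, adjusted p = 0.0368). P2ry12 overlapped, at 24.0 and 36.2 CPM in rNLS8, against 29.6 and 31.7 CPM in Control (-0.04, SE 0.315). The folds of the other 4 were 0.22 for Cx3cr1, 0.29 for Csf1r, 0.41 for Tgfbr1 and 0.61 for Tmem119.

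In the meninges, where border macrophages also carry Csf1r and Cx3cr1, 0.302% of genes and none of the 6 tested members were called. Csf1r stood at 115.8 and 106.0 CPM in rNLS8, against 104.1 and 104.4 CPM in Control (0.08, SE 0.244, adjusted p = 0.953). P2ry12 stood at 20.5 and 23.9 CPM in rNLS8, against 30.2 and 24.4 CPM in Control (-0.24, SE 0.436, adjusted p = 0.910), from 14 and 25 UMI in rNLS8 and 9 and 14 UMI in Control. Both rNLS8 sections lay below both Control sections for P2ry12 alone of the 6, against 20.7% of all genes tested, and above them for Csf1r and Tgfbr1, against 21.1%. For P2ry12 the nearest pair was 23.9 CPM in rNLS8, against 24.4 CPM in Control. The folds of the others were 0.33 for Tgfbr1, 0.31 for Aif1, -0.02 for Tmem119 and -0.22 for Cx3cr1. Fcrls held 5 and 15 UMI in rNLS8, against 0 and 5 UMI in Control, and was not tested.

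**Figure D3:**
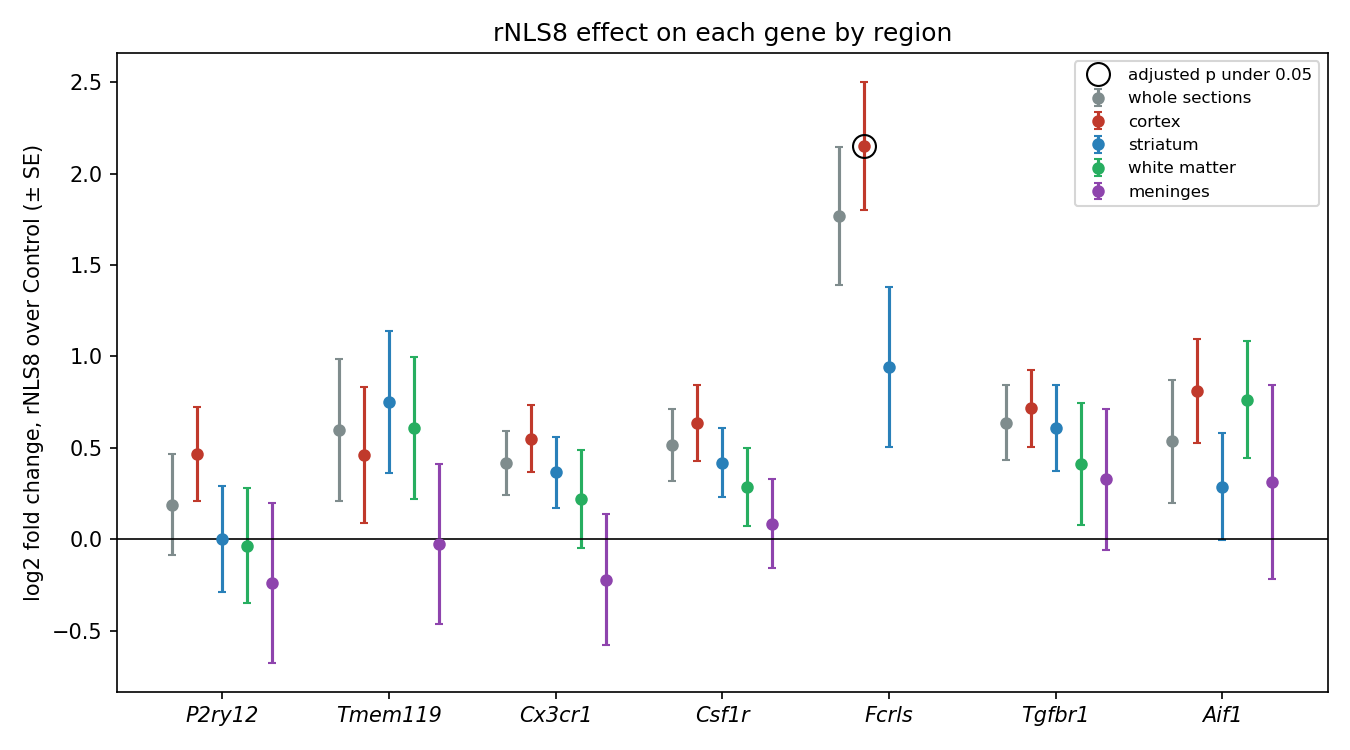
Log2 fold change of rNLS8 over Control (y axis) with its SE, for each gene and region, from 2 sections per group, with a ring around values at an adjusted p under 0.05 and no value where a gene was not tested. Fcrls in the cortex, at 2.15, is the 1 value ringed, and P2ry12 runs from -0.24 in the meninges to 0.47 in the cortex.

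Whether the rNLS8 effect differed between the cortex and all other spots was tested as an interaction with section as a block. None of the 7 passed, where 0.816% of 12992 genes did. The difference was 0.69 for Fcrls (SE 0.440, adjusted p = 0.603), 0.40 for Aif1 (SE 0.147, adjusted p = 0.294) and 0.37 for P2ry12 (SE 0.169, adjusted p = 0.425). It was 0.18 for Cx3cr1, 0.15 for Csf1r, 0.10 for Tgfbr1 and -0.22 for Tmem119. The Fcrls effect is therefore not shown to be particular to the cortex.

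Within the cortex, the rNLS8 effect on Csf1r was larger in deep-layer than in upper-layer spots, in a comparison chosen after values of both layers were seen. Csf1r stood at 81.5 and 117.6 CPM in the deep layers of rNLS8, against 42.3 and 61.8 CPM in those of Control. In the upper layers it stood at 63.9 and 81.6 CPM in rNLS8, against 54.8 and 62.9 CPM in Control. The groups did not overlap in either layer, and the share of all genes that separate in each layer was not counted. The effects on Csf1r differed by 0.62 on the log2 scale (SE 0.147, edgeR adjusted p = 0.0203). It was the 1 called gene of the 7, against 0.322% of 11488 genes called as higher. The call held without rNLS8 replicate 1 (0.69, adjusted p = 0.0167) and without Control replicate 2 (0.82, adjusted p = 0.0257). It was lost without rNLS8 replicate 2 (0.51, adjusted p = 0.452) and without Control replicate 1 (0.48, adjusted p = 0.304).

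The other 6 genes also had larger effects in the deep layers and did not pass. Cx3cr1 stood at 33.0 and 37.3 CPM in the deep layers of rNLS8, against 20.2 and 18.5 CPM in those of Control, and its effects differed by 0.67 (SE 0.227, adjusted p = 0.230). P2ry12 stood at 21.7 and 32.7 CPM in the deep layers of rNLS8, against 13.9 and 20.9 CPM in those of Control, and its effects differed by 0.37 (SE 0.253, adjusted p = 0.725). P2ry12 overlapped between groups in the upper layers. In the deep ones it separated narrowly, with a nearest pair of 21.7 CPM in rNLS8, against 20.9 CPM in Control. The share of all genes that separate there was not counted. For Fcrls the difference was 0.24 (SE 0.605, adjusted p = 0.957), and it turned to -0.50 without Control replicate 1. It was 0.40 for Tmem119, 0.30 for Tgfbr1 and 0.19 for Aif1.

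**Figure D4:**
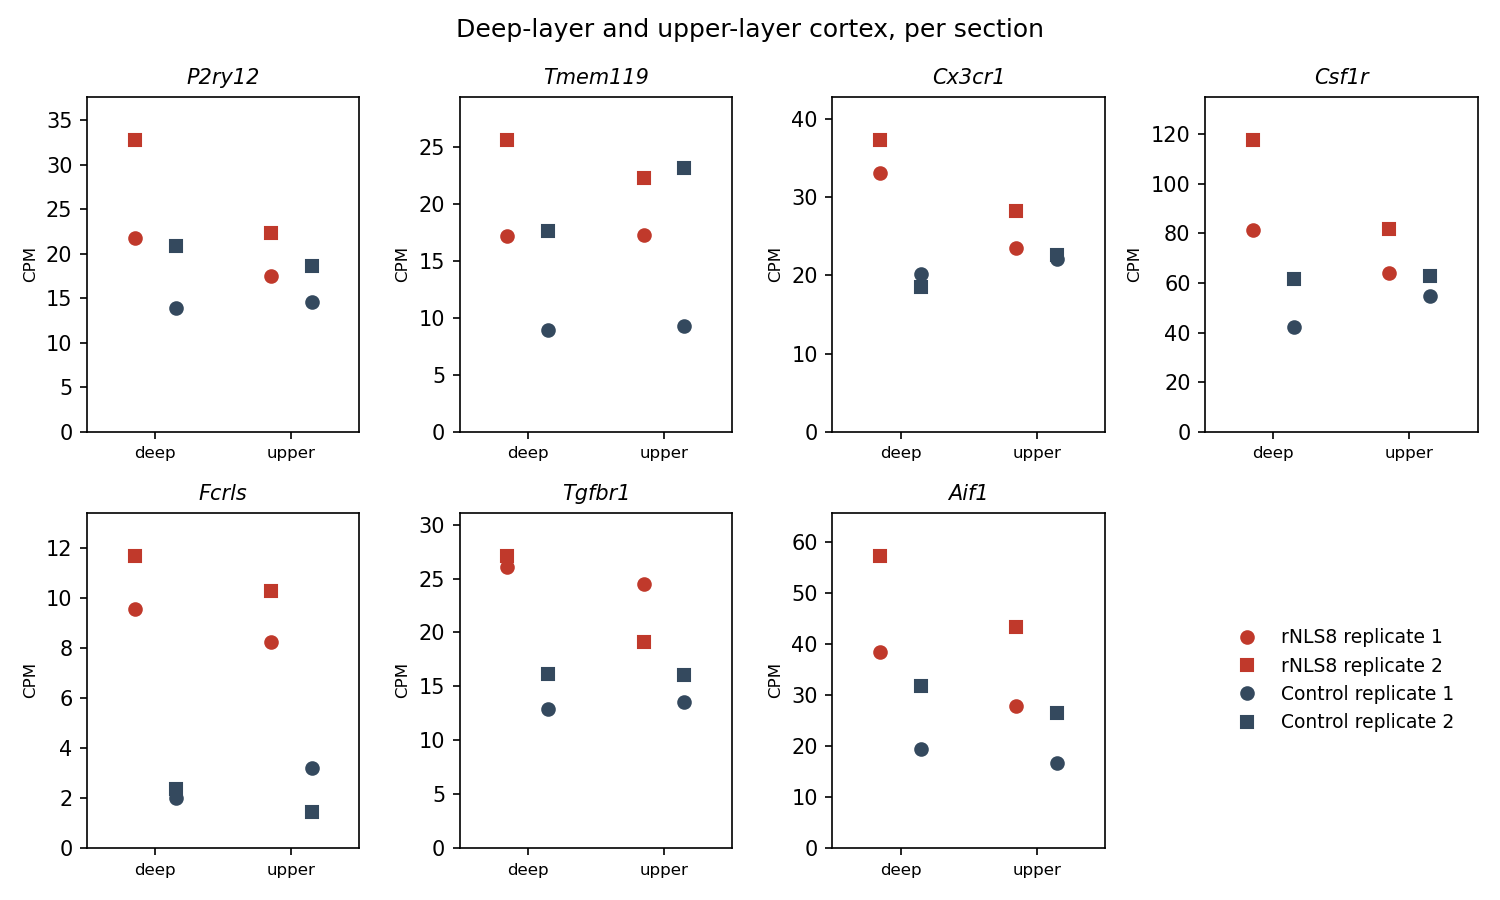
Level of each gene in CPM (y axis from 0) in deep-layer and upper-layer cortical spots, 1 point per section, rNLS8 left of Control. Csf1r lies at 81.5 and 117.6 CPM in deep rNLS8 spots, against 42.3 and 61.8 CPM in deep Control spots.

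Regions were ordered with all 4 sections in 1 fit and section as a block. In the white matter Csf1r (0.52, SE 0.102, adjusted p = 9.57e-05), Cx3cr1 (0.52, SE 0.144, adjusted p = 0.00451), P2ry12 (0.52, SE 0.162, adjusted p = 0.0102) and Tgfbr1 (0.46, SE 0.158, adjusted p = 0.0232) were higher than in the cortex. These 4 of 7 stand against 17.4% of 11242 genes called as higher. Csf1r and Cx3cr1 were still called when any one section was left out. P2ry12 was lost without Control replicate 1 (0.43, adjusted p = 0.0591). Tgfbr1 was lost without rNLS8 replicate 1 (0.40, adjusted p = 0.179), without Control replicate 1 (0.41, adjusted p = 0.0763), without Control replicate 2 (0.42, adjusted p = 0.0720) and in the Control sections alone (0.64, adjusted p = 0.117).

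In the meninges Csf1r (0.42, SE 0.116, adjusted p = 0.00407), Tgfbr1 (0.61, SE 0.178, adjusted p = 0.00585) and Tmem119 (0.61, SE 0.202, adjusted p = 0.0154) were higher than in the cortex, 3 of 7 against 20.3% of genes called as higher. Csf1r was still called when any one section was left out. Tgfbr1 was lost without rNLS8 replicate 2 (0.58, adjusted p = 0.0505) and Control replicate 2 (0.51, adjusted p = 0.0552), and Tmem119 without rNLS8 replicate 1 (0.44, adjusted p = 0.176) and Control replicate 2 (0.47, adjusted p = 0.134). Aif1 was lower (-0.46, SE 0.188, adjusted p = 0.0471), 1 of 7 against 20.3% called as lower. It was lost without rNLS8 replicate 1 (-0.30, adjusted p = 0.301), rNLS8 replicate 2 (-0.55, adjusted p = 0.107) or Control replicate 1 (-0.41, adjusted p = 0.0974). In the striatum, where 38.3% of genes differed from the cortex, none of the 7 did. The nearest was Fcrls (-0.59, SE 0.251, adjusted p = 0.0629), which was called without Control replicate 1 (-0.78, adjusted p = 0.0262) or Control replicate 2 (-0.73, adjusted p = 0.0238).

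Moran's I, a score of the authors that is higher where neighbouring spots have similar levels, was tested for genes found in at least 10% of spots of each section, which left Csf1r of the 7. It was 0.0421 and 0.0383 in rNLS8, against 0.0275 and 0.0244 in Control. Both rNLS8 sections were above both Control sections, and the difference of 0.0142 (SE 0.0099, limma adjusted p = 0.458) did not pass, where 0.0316% of 6321 genes did.

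Because spots mix cells, each gene was also set against other genes of the lineage. The 16 core myeloid genes, such as Spi1, Itgam and Ptprc, summed to 302.2 and 379.3 CPM in the rNLS8 cortex, against 215.7 and 232.9 CPM in the Control cortex. Relative to that sum Fcrls had log2 ratios of -5.08 and -5.12 in rNLS8, against -6.38 and -6.95 in Control, a difference of 1.57 without overlap (exact permutation p = 0.333, the smallest possible). The other 6 genes overlapped between groups on this scale, with differences from -0.12 for P2ry12 to 0.24 for Aif1. How many of all genes separate on this scale was not counted, so the separation of Fcrls has no background share beside it. The core myeloid sum leans on its most abundant genes. Over whole Control sections, Mertk held 63.9 and 78.3 CPM and Vsir 53.1 and 47.5 CPM of 239.3 and 261.5 CPM. Their cortical folds were -0.23 and -0.20, beside a median of 1.18 over the 15 tested genes of the list. Overlap on this scale thus does not show that the 6 genes rose as much as the lineage.

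**Figure D5:**
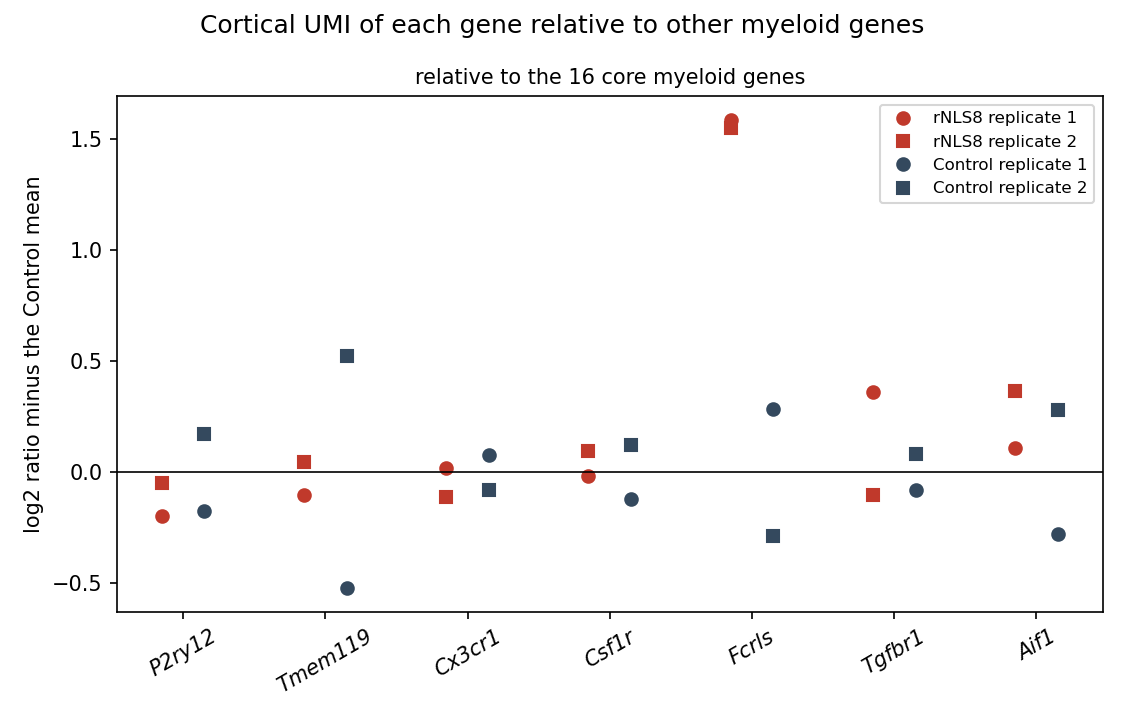
Log2 ratio of each gene's cortical UMI to the summed UMI of 16 core myeloid genes, minus the mean of the 2 Control sections (y axis), 1 point per section, rNLS8 left of Control. Fcrls lies above Control in both rNLS8 sections, by 1.57 on average, and the other 6 genes overlap, with P2ry12 at -0.12.

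Of the UMI of the 7 genes in the cortex, Fcrls made up 4.33% and 4.09% in rNLS8, against 2.03% and 1.11% in Control. The 95% Wilson intervals were 3.47% to 5.38% and 3.28% to 5.08% in rNLS8, against 1.23% to 3.32% and 0.648% to 1.89% in Control. They cover counting error within a section only, and not the spread between sections. P2ry12 made up 9.57% and 10.3% in rNLS8, against 11.2% and 11.6% in Control.

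Other microglial genes were read from lists, in a cortex where 1.91% of genes were called in either direction and the median log2 fold change was 0.02. Of 17 further homeostatic genes tested, 0 rose and 0 fell, with a median of 0.40, and leaving out each section in turn 0 to 6 rose and 0 to 1 fell. Of 15 core myeloid genes Laptm5, a lysosomal protein gene (0.98, adjusted p = 0.0434), Ly86, a partner of a Toll-like receptor relative (2.09, adjusted p = 0.0450), and Csf3r, a cytokine receptor gene (1.44, adjusted p = 0.0484), rose and 0 fell, with a median of 1.18. Of 18 genes of disease-associated microglia 9 rose and 0 fell, with a median of 1.41. Of the 3 core myeloid genes, 0 were called under upper-quartile scaling, with the claustrum cluster added, with another clustering seed or at resolution 0.5. Of the 9, all were called under upper-quartile scaling, 8 with the claustrum cluster, 8 with the other seed and 7 at resolution 0.5. The same 9 and the same 3 were called without rNLS8 replicate 1, and 7 of the 9 and 1 of the 3, Ly86, without rNLS8 replicate 2. The 9 included Cst7, a protease inhibitor gene with 161 and 339 UMI in rNLS8, against 2 and 3 UMI in Control, Cd52, a surface glycoprotein gene (3.35), Tyrobp, a signalling adaptor gene (2.19), Trem2, its lipid-binding receptor (1.94), Cd68, a lysosomal membrane protein gene (1.93), and Ctsd, a lysosomal protease gene (1.72).

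Spots with a UMI of Cst7 numbered 122 of 778 and 216 of 829 in the rNLS8 cortex, against 2 in each Control cortex. Within rNLS8 replicates 1 and 2, Fcrls stood at 17.6 and 16.9 CPM of total UMI in these spots, against 7.88 and 9.33 CPM in the other cortical spots. Csf1r was 1.87-fold and 1.59-fold higher there, Aif1 1.96-fold and 1.69-fold, Tgfbr1 1.89-fold and 1.58-fold, Cx3cr1 1.88-fold and 1.23-fold, and Tmem119 1.36-fold and 1.30-fold. P2ry12 differed between the sections, at 1.01-fold and 1.65-fold. In rNLS8 spots without Cst7, Fcrls at 7.88 and 9.33 CPM still lay above the 2.37 and 1.85 CPM of such Control spots. Median depth was 10239 and 8925.5 UMI in rNLS8 spots with Cst7, against 10847 and 7643 UMI in those without. Spots were chosen by their Cst7 count and no test was made.

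None of the ligands passed in the cortex. Il34, the neuronal ligand of CSF1R, stood at 88.1 and 82.5 CPM in rNLS8, against 141.6 and 110.8 CPM in Control (-0.56, SE 0.171, adjusted p = 0.126). Both rNLS8 sections lay below both Control sections. Tgfb1, a ligand of the TGF-beta receptor, stood at 31.7 and 43.3 CPM in rNLS8, against 17.6 and 20.1 CPM in Control (0.99, SE 0.217, adjusted p = 0.0659), without overlap. Tgfb3 had a fold of 0.24 (adjusted p = 0.475) and Tgfb2 one of 0.04 (adjusted p = 0.937). Csf1 held 5 and 3 UMI in rNLS8, against 3 and 6 UMI in Control, and was not tested, and Cx3cl1, the fractalkine gene, was not analysed here. Leaving out each section in turn, 0 to 1 of the 4 tested ligands rose and 0 to 1 fell, and 1 rose without rNLS8 replicate 1. Of 13 genes around the TGF-beta receptor 0 rose and 0 fell, with a median of 0.00, and 0 to 4 rose and 0 to 3 fell on leaving out a section.

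Among markers of other leukocytes in the cortex, those of border macrophages and of monocytes and neutrophils had low sums. The 10 border macrophage genes summed to 15.6 and 17.1 CPM in rNLS8, against 7.76 and 14.2 CPM in Control, and 0 of 3 tested passed. The 3 had folds of 0.89 for Pf4, 0.56 for Mrc1 and -0.31 for F13a1. Lyve1, another of the 10, held 2 UMI in each rNLS8 section and 0 in both Control sections. The 9 monocyte and neutrophil genes summed to 1.29 and 3.59 CPM in rNLS8, against 2.41 and 0.434 CPM in Control, with 5 of them at 0 in all sections. The 10 T and NK cell genes summed to 34.8 and 42.0 CPM in rNLS8, against 47.4 and 44.4 CPM in Control, most of it Trbc2, and Cd3e held 0 and 1 UMI in rNLS8 and 0 in both Control sections. Trbc2 was also among the leading genes of the deep-layer cortical cluster, so this sum is not a measure of T cells. The part of these cells in the values of the 7 genes was not tested.

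Of 7 genes listed as markers of surface glia, Gfap alone was called in the same cortex, and the median fold of the 7 was 0.01. The others had folds of 0.82 for Aqp4, 0.15 for Id3, 0.01 for Fam107a, -0.03 for Slc6a11, -0.69 for Agt and -0.88 for Myoc. Gfap, the intermediate filament gene of reactive astrocytes, stood at 423.2 and 932.4 CPM in rNLS8, against 93.8 and 74.8 CPM in Control (3.01, SE 0.364, adjusted p = 0.0192), and it was called whichever section was left out. Of 6 astrocyte genes 0 passed. They summed to 4106 and 4452 CPM in rNLS8, against 4189 and 4597 CPM in Control, and Aqp4, a water channel gene, had a fold of 0.82 without overlap (adjusted p = 0.124). Of 6 neuronal genes 0 passed. They summed to 7104 and 6929 CPM in rNLS8, against 11319 and 9851 CPM in Control, and Snap25, a synaptic vesicle fusion gene, stood at 3125 and 2569 CPM in rNLS8, against 5053 and 5637 CPM in Control (-0.91, SE 0.176, adjusted p = 0.0513). Oligodendrocyte genes summed to 9162 and 8712 CPM in rNLS8, against 10129 and 7812 CPM in Control, and endothelial genes to 296.9 and 328.4 CPM in rNLS8, against 387.3 and 293.8 CPM in Control. Whether a change in the share of these cells bears on the CPM of the 7 genes was not tested.

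The genes most like each member over 28 sums of section and region, by Pearson correlation of log2 CPM centred on the section mean, are a description, since sums of a section share a library. Csf1r was most like C1qa (r = 0.91), Laptm5 (0.90) and C1qb (0.89), and Cx3cr1 most like Laptm5 (0.87), Gfap (0.86) and C1qa (0.86). P2ry12 was most like Foxo4 (0.79), Ly86 (0.79) and Cenpb (0.78), and Tmem119 most like Ak3 (0.83), Lamp2 (0.83) and Unc93b1 (0.83). Tgfbr1 was most like Htra1 (0.86), 4931406P16Rik (0.82) and Serp1 (0.82), and Aif1 most like Arhgdia (0.87), Iars (0.85) and Ptdss1 (0.83). Fcrls was most like Pi4kb (0.78), Klhl21 (0.77) and Tubgcp5 (0.76). Among the 7 genes the closest pair was Cx3cr1 and Csf1r (0.84), while Fcrls and Csf1r had -0.01. Fcrls held at most 44 UMI in any of these sums. It held 0 UMI in the claustrum and meninges of Control replicate 1 and in the white matter of Control replicate 2. Its correlations thus rest largely on counting error and do not show how its pattern relates to that of Csf1r.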

How the data were processed

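Counts of UMI per gene and spot were deposited as made by the authors with Space Ranger 2.1.0 per the file headers, on the mm10 build per the submitters' processing notes. The deposited Moran's I score, with its p-value, is the authors' own per gene and section. A mean signal per gene, scaled by the authors to the median spot per the file headers, was not used.

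Spots with at least 500 UMI were kept. Spots were clustered on 122 region marker genes, centred per section, with 30 principal components, 15 exact nearest neighbours and Leiden resolution 1 (scanpy 1.11.5), which gave 11 clusters. Clusters were named from region markers and position. Marker genes were used after variable genes had split spots by depth and genotype. Exact neighbours were used after an approximate search had given other clusters in a repeated run, and other clusterings of the cortex are given as alternatives chosen after seeing the data.

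UMI were summed per section and region and tested with edgeR 4.0.16 in R 4.3.3, with filterByExpr. DESeq2 1.42.0, other scaling, no filter, a replicate block and leaving out each section were alternatives, and limma 3.58.1 tested Moran's I. The tests were tried on simulated counts. Levels relative to another myeloid denominator are not reported here. By the rule for named genes, the 7 genes are given in each comparison of groups, in full or by their folds, and other genes by list. The members and lists were chosen with earlier results of these data known. Same-numbered sections did not deviate together (correlation -0.0132 over whole sections and -0.0595 in the cortex). This cannot show whether they were handled as pairs. The main fits have no replicate block.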

Additional observations from a re-analysis of the deposited data

Results flagged for a closer look

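The rNLS8 effect on Csf1r differed between deep and upper cortical layers by 0.62 on the log2 scale (edgeR adjusted p = 0.0203), a comparison chosen after the values were seen. The adjusted p does not account for that choice, and the call was lost without rNLS8 replicate 2 and without Control replicate 1.

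P2ry12 lay above Control in both rNLS8 sections in the cortex and below it in both in the meninges. Both separations were near ties, at 19.73 CPM in rNLS8 against 19.66 CPM in Control in the cortex and 23.88 CPM in rNLS8 against 24.35 CPM in Control in the meninges. The log2 fold changes, 0.47 (SE 0.258) and -0.24 (SE 0.436), differed by 0.71, and this difference was not tested.

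Y-linked genes held 136.7 UMI in each 1000000 in rNLS8 replicate 1, which is labelled female, against 0 in the Control section labelled female.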

How the results depend on the processing

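Regions rest on a clustering of spots, Fcrls rests on few UMI in every region (13 and 15 in the Control cortex), and 2 sections per group limit every test. Over alternatives of single genes, 444 of 528 values kept their direction and their side of the threshold or stayed within the spread. Most tested values were not called to begin with, so keeping a side mostly meant staying uncalled. Values without an adjusted p were counted as keeping theirs. The number of the 7 genes called over whole sections was 1 with DESeq2 and 1 with no filter on low counts. In the cortex it was 0 under upper-quartile scaling, 0 with clusters from another seed and 0 at resolution 0.5. Genes called over whole sections numbered 526 with DESeq2, 239 with no filter and 78 with the replicate block. In the cortex they numbered 700 with DESeq2, 100 under upper-quartile scaling, 905 with no filter, 463 with the replicate block, 121 with the claustrum cluster added and 120 at resolution 0.5. In the striatum they numbered 349 with DESeq2, 788 with no filter and 141 with the replicate block, and in the white matter 29, 35 and 29. In the meninges they numbered 124 with no filter and 60 with the block, for the cortex against other spots 351 with no filter, and for Moran's I 0 with the block. The replicate block changed no call of the 7 genes. P2ry12 in the striatum turned to -0.006 with no filter, Tmem119 in the meninges to 0.10 with DESeq2 and 0.042 with the block, and Aif1 in the striatum against the cortex to 0.17 in Control sections alone. The cause was not tested. Leaving out each section in turn, the number of the 7 genes called ran from 0 to 2 over whole sections, 0 to 6 in the cortex, 0 to 2 in the striatum, 0 to 1 in the white matter, 0 to 1 for deep against upper cortex, and, against the cortex, 0 to 1 in the striatum, 2 to 5 in the white matter and 2 to 3 in the meninges. All genes called ran from 2 to 1839 over whole sections, 114 to 4362 in the cortex, 8 to 1243 in the striatum, 13 to 1092 in the white matter, 5 to 884 in the meninges, 103 to 585 for cortex against other spots, 19 to 114 for deep against upper cortex and 5 to 57 for Moran's I. Log2 differences that turned ran, for P2ry12, from -0.083 to 0.51 over whole sections, -0.31 to 0.36 in the striatum, -0.34 to 0.25 in the white matter and -0.11 to 0.22 in the meninges against the cortex. For Tmem119 they ran from -0.0038 to 1.13 in the cortex and -0.46 to 1.21 in the meninges, and for Cx3cr1 from -0.45 to 0.019 in the meninges. For Aif1 they ran from -0.049 to 0.69 in the striatum, -0.41 to 2.15 in the meninges and -0.16 to 0.029 in the striatum against the cortex. For Tgfbr1 they ran from -0.13 to 0.31 for cortex against other spots and -0.094 to 0.019 in the striatum against the cortex, and for Fcrls from -0.50 to 0.88 for deep against upper cortex. Relative to the core myeloid list they ran from -0.30 to 0.051 for P2ry12, -0.55 to 0.50 for Tmem119, -0.13 to 0.032 for Cx3cr1, -0.084 to 0.16 for Csf1r, -0.10 to 0.36 for Tgfbr1 and -0.044 to 0.51 for Aif1. The share of spots with Tmem119 differed by -2.18 to 3.44 percentage points.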
